A study of Mus musculus with 8 samples.

Results

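Type I interferons bind the receptor made of IFNAR1 and IFNAR2, whose kinases JAK1 and TYK2 activate the factor ISGF3. This complex, which includes STAT2 and IRF9, binds interferon-stimulated response elements in promoters and switches on genes that act directly against viruses. In bone, interferon-β is also known to restrain the formation of osteoclasts, the cells that resorb bone. The 10 genes of this effector arm followed here were Rsad2, Cmpk2, Bst2, Rtp4, Xaf1, Mx1, Mx2, Samhd1, Ifi44 and Ddx60. They were chosen by symbol, with earlier results of the same libraries known, so their levels and differences are a description and carry no test. All 10 were found among the 24421 genes in the tables.

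RNA was sequenced from calvarial osteoblastic cells, bone-forming precursors taken from the skulls of newborn C57BL/6 mice. The cells came from wild-type (WT) mice or from Def6-/- mice, which lack the adaptor protein Def6 and have been backcrossed to the same strain, and were collected at day 0 or after 12 days in osteogenic medium (ascorbic acid and β-glycerophosphate). Each of the 4 groups had 2 libraries, and every cell in a Def6-/- culture lacks Def6, not only the osteoblasts. Hematopoietic cells had not been removed from these cultures. Reads on genes, recovered from the deposited CPM values (counts per 1000000 of all reads), numbered between 2414856 and 3482835 per library. Levels are given as reads and as normalized CPM (reads on a gene per 1000000 reads on all genes, with TMM composition factors). Def6 had between 112 and 186 reads in each WT library and between 0 and 2 in each Def6-/- library, so no library went against its genotype label. Osteoblast markers rose with time in culture: 7 of 10 were higher at day 12 in WT cells and 7 in Def6-/- cells, against 18.9% and 18.6% of all genes. Bglap and Bglap2 had 0 reads at day 0 in both genotypes, so a rise was the only change they could show.

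The members lie on 6 chromosomes of GRCm38, the assembly behind mm10. Rsad2 (chromosome 12, 26442746 to 26456452, minus strand) and Cmpk2 (chromosome 12, 26469204 to 26479837, plus strand) are neighbors in head-to-head orientation, with 12752 bases between their GENCODE start sites. Mx1 (97447035 to 97462907) and Mx2 (97535308 to 97560900) are neighbors on chromosome 16, which also holds Rtp4 (23520291 to 23614222). Bst2 (71534255 to 71537456) and Ddx60 (61928087 to 62038244) are on chromosome 8, Xaf1 (72301629 to 72313733) on chromosome 11, Samhd1 (157097533 to 157135265) on chromosome 2 and Ifi44 (151730922 to 151749960) on chromosome 3. In GENCODE vM21 the exons of 9 members overlap no exon of another gene, whereas 296 of the 2131 exonic bases of Rtp4 are shared with Gm45338 on the same strand.

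Promoters in the RefSeq set for GRCm38.p6 were matched for 7 of the 10 members, each covering 250 bases before and 50 bases after the start site. The letters GAAANNGAAA, the core of the response element that ISGF3 binds, were searched on both strands. They were present in 3 of the 7 promoters (Rsad2, Bst2 and Ddx60) and in 3.44% of all 32851 promoters. Counted by gene, as the members are, 3.99% of 27025 genes had them. The letters TTCNNNGAA, the palindromic site of STAT dimers, were present in 2 of the 7 (Bst2 and Samhd1) and in 8.30% of all promoters (9.55% of genes). Among 44 other interferon effector genes on a comparison list, 36 had a promoter and 15 of those held GAAANNGAAA. The stretches from 150 bases before the start site up to the start site are shown for the 3 promoters with the element and for Xaf1, which had neither motif in its window. Capitals mark both motifs:
Rsad2, chr12:26456453-26456602, minus strand: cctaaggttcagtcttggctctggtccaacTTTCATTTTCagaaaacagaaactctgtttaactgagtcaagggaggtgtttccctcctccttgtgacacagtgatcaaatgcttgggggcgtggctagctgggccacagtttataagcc
Bst2, chr8:71537473-71537622, minus strand: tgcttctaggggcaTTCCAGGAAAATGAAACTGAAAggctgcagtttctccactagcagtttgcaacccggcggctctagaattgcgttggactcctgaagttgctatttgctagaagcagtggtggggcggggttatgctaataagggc
Ddx60, chr8:61927937-61928086, plus strand: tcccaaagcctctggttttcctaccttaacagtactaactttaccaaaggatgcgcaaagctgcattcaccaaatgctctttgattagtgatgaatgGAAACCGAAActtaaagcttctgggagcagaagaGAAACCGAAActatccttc
Xaf1, chr11:72301479-72301628, plus strand: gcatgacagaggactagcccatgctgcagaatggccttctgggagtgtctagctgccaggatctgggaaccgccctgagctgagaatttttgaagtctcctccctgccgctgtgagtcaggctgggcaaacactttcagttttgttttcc

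In Bst2 the 2 copies of GAAANNGAAA begin 130 and 124 bases before the start site and overlap each other, and the first also overlaps the TTCNNNGAA match that begins 136 bases before it. Ddx60 held its copies 53 and 19 bases before the start site, both with the same letters. The single copy of Rsad2 lies on the opposite strand and begins 120 bases before the start site. A match to these letters is a description of the sequence and does not show binding.

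Bst2, which encodes tetherin, the protein that holds budding virions at the cell surface, had 77 and 78 reads in the WT libraries at day 0 and 23 and 59 in the Def6-/- libraries. At day 12 it had 675 and 746 reads in WT cells and 357 and 211 in Def6-/- cells. In normalized CPM these were 29.0 ± 1.98 (SD, n = 2 throughout) in WT and 14.4 ± 8.09 in Def6-/- cells at day 0, and 253 ± 83.9 and 118 ± 40.0 at day 12. On each day the Def6-/- libraries both stayed under the WT range, and every day 12 library was above every day 0 library. On the log2(normalized CPM + 1) scale Bst2 was higher at day 12 by 3.05 (standard error 0.40) in WT and by 3.02 (0.40) in Def6-/- cells, and Def6-/- cells differed from WT cells by -1.07 (0.40) at day 0 and by -1.09 (0.40) at day 12. At day 0 the replicates of the Def6-/- group differed beyond counting error, replicate 2 being 2.32 times replicate 1 (95% interval 1.41 to 3.94). The day 0 difference of Bst2 between genotypes was -0.50 without Def6-/- replicate 1 and -1.63 without Def6-/- replicate 2. Its genotype by day interaction was -0.02 (0.56), lay between -0.59 and 0.54 over the alternatives and changed sign in 6 of 17, so these libraries do not show whether the difference was alike on both days.

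Rtp4, a chaperone of receptor trafficking that also restricts flaviviruses, had 9 and 10 reads in WT cells and 10 and 10 in Def6-/- cells at day 0. At day 12 it had 134 and 170 reads in WT and 62 and 37 in Def6-/- cells. Its normalized CPM went from 3.54 ± 0.01 to 54.8 ± 23.1 in WT cells and from 3.58 ± 0.25 to 20.6 ± 6.83 in Def6-/- cells. The day 0 libraries thus lay within a narrow range in both genotypes, and at day 12 the genotypes did not overlap. The difference between days was 3.56 (0.36) in WT and 2.20 (0.36) in Def6-/- cells on the log2 scale, and that between genotypes was 0.01 (0.36) at day 0 and -1.34 (0.36) at day 12. The genotype by day interaction of Rtp4 was -1.35 (0.51), and it lay between -1.79 and -0.92 over the alternatives. That of Rsad2, which rests on 4 reads at day 0, was -1.12, and became -2.30 with edgeR, -2.50 with DESeq2 and -2.32 with a pseudocount of 0.1, against -1.41, -1.43 and -1.39 for Rtp4. In summed reads, Def6-/- cells at day 12 had 0.400 times the WT rate (95% counting interval 0.316 to 0.504). Counting intervals cover counting error only. Those between groups pool the 2 libraries of each group and leave out the spread between libraries. Reads are also not independent molecules, so the intervals may be too narrow even for counting error. Fewer cells of a type and less RNA per cell cannot be told apart in such bulk samples.

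**Figure D1:**
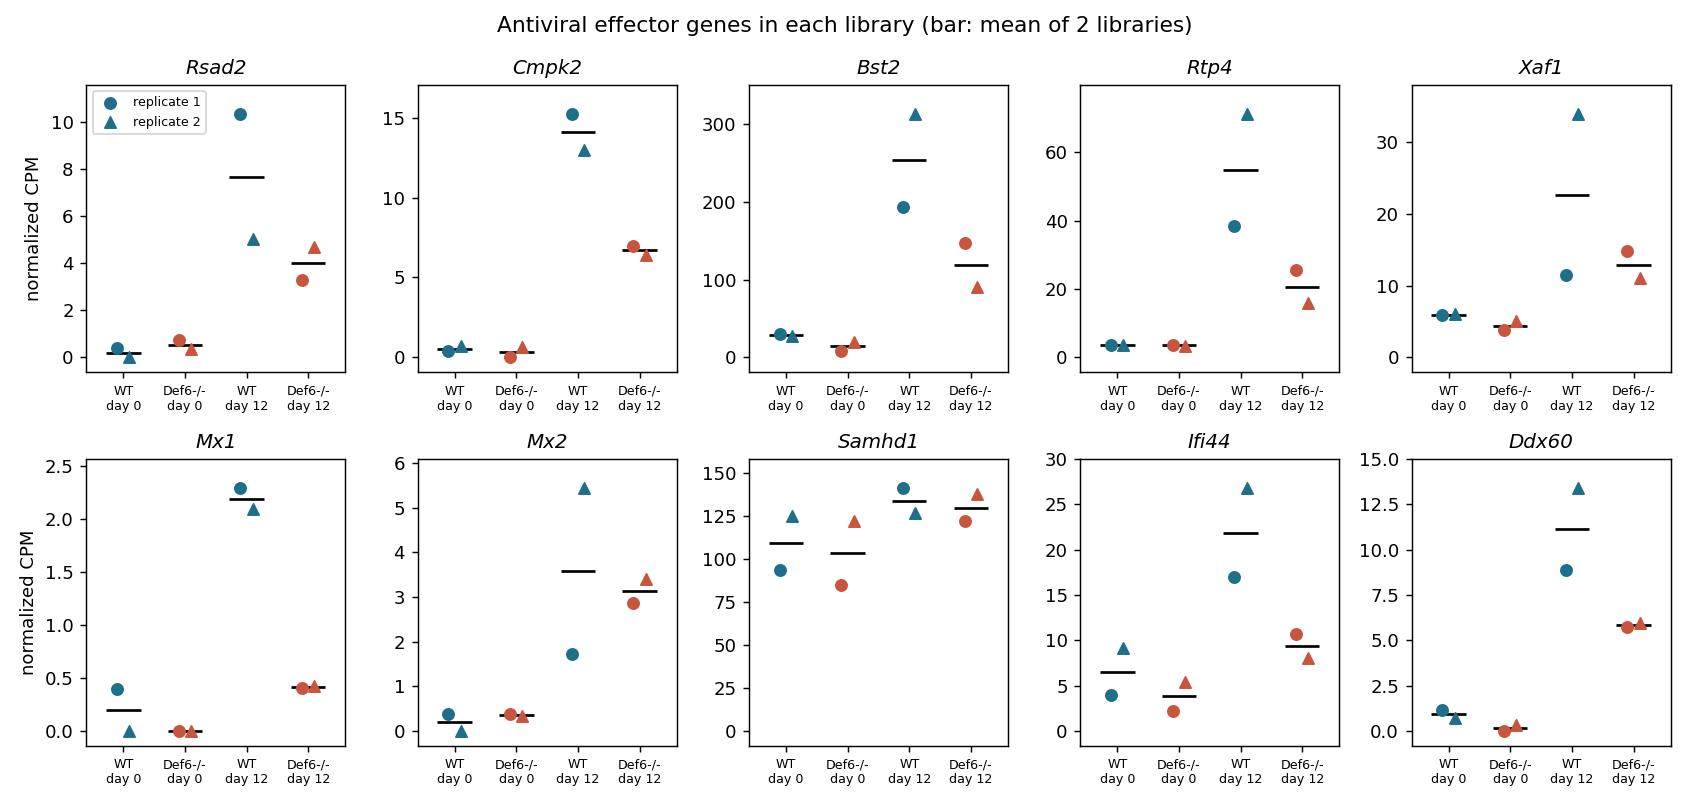
Normalized CPM of each of the 10 genes (vertical axes, linear, each with its own range) in the 8 libraries, by genotype and day on the horizontal axis, with circles for replicate 1, triangles for replicate 2 and bars for the mean of 2 libraries. Rtp4 lies near 3.5 in all 4 day 0 libraries and separates by genotype at day 12, Bst2 is lower in Def6-/- cells on both days, and Samhd1 stays between 85.0 and 141 in all 8 libraries.

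The neighbors Rsad2 and Cmpk2 were scarce at day 0. Rsad2 encodes viperin, which converts CTP into a nucleotide that terminates viral RNA chains, and Cmpk2 encodes a mitochondrial nucleoside monophosphate kinase. Rsad2 had 1 and 0 reads in WT and 2 and 1 in Def6-/- cells at day 0, and 36 and 12 in WT and 8 and 11 in Def6-/- cells at day 12. Cmpk2 had 1 and 2 reads in WT and 0 and 2 in Def6-/- cells at day 0, and 53 and 31 in WT and 17 and 15 in Def6-/- cells at day 12. Both genes were thus detected by no more than 2 reads in any library at day 0, and at day 12 both WT libraries were above both Def6-/- libraries for each gene, for Rsad2 by a margin of 5.03 against 4.70 normalized CPM. Cmpk2 was the steadier of the pair at day 12, with 14.1 ± 1.58 normalized CPM in WT and 6.69 ± 0.41 in Def6-/- cells (difference -0.97, standard error 0.37, on the log2 scale), against 7.68 ± 3.75 and 3.99 ± 1.0 for Rsad2 (-0.74, 0.44). In summed reads at day 12, Def6-/- cells had 0.468 times the WT rate of Cmpk2 (0.301 to 0.711) and 0.487 times that of Rsad2 (0.270 to 0.843). The reads of Cmpk2 were between 1.36 and 2.58 times those of Rsad2 in the 4 libraries of day 12. Between days, the log2 differences were 2.81 (0.44) for Rsad2 and 3.29 (0.37) for Cmpk2 in WT cells and 1.69 (0.44) and 2.57 (0.37) in Def6-/- cells, and the added pseudocount holds them below the differences in reads: Cmpk2 had 25.6 times the day 0 rate in WT cells (8.46 to 127) and 18.7 times in Def6-/- cells (4.78 to 161). Cmpk1, the constitutive cytosolic relative of Cmpk2, was at 98.5 normalized CPM in WT and 94.6 in Def6-/- cells at day 12 and passed the test in no comparison.

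Sensing and cell death genes made up the next group. Ddx60, a helicase linked to the RNA sensor RIG-I, had 3 and 2 reads in WT and 0 and 1 in Def6-/- cells at day 0, and 31 and 32 in WT and 14 and 14 in Def6-/- cells at day 12. Its 4 WT libraries were each above the Def6-/- libraries of the same day, at 11.2 ± 3.18 against 5.86 ± 0.16 normalized CPM on day 12, and the log2 differences between genotypes were -0.74 (0.37) at day 0 and -0.80 (0.37) at day 12. The day 0 value compares 1 read with 5 and depends on the pseudocount, being -2.13 with edgeR, -2.39 with DESeq2 and -2.28 with a pseudocount of 0.1, and the interaction of Ddx60 (-0.06) changed sign in 7 of 17 alternatives. Ifi44, a cytoplasmic protein of the interferon response, had 10 and 26 reads in WT and 6 and 16 in Def6-/- cells at day 0, and 59 and 64 in WT and 26 and 19 in Def6-/- cells at day 12. The genotypes overlapped at day 0 and did not at day 12, where Ifi44 was at 21.9 ± 6.98 against 9.40 ± 1.81 normalized CPM (log2 difference -1.11, standard error 0.46). Its relative Ifi44l had 0 reads in all 8 libraries. Xaf1, which encodes a proapoptotic antagonist of XIAP, had 15 and 17 reads in WT and 10 and 15 in Def6-/- cells at day 0, and 40 and 81 in WT and 36 and 26 in Def6-/- cells at day 12. At day 12 the genotypes overlapped for Xaf1, because WT replicate 1 (11.5 normalized CPM) lay between the Def6-/- libraries (14.8 and 11.1) while WT replicate 2 was at 33.9. The log2 difference of Xaf1 between genotypes was -0.60 (0.45) and turned to 0.15 without WT replicate 2. Xiap itself was at 88.5 and 87.1 normalized CPM in WT and Def6-/- cells at day 12.

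The Mx genes, which encode dynamin-like GTPases against influenza and related viruses, were at the limit of detection. Both alleles are known to be defective in C57BL/6 and most laboratory strains, and RefSeq lists both genes as transcribed pseudogenes, while GENCODE vM21 lists Mx1 as protein coding and Mx2 as a polymorphic pseudogene. Mx1 had 1 and 0 reads in WT and 0 and 0 in Def6-/- cells at day 0, and 8 and 5 in WT and 1 and 1 in Def6-/- cells at day 12. With 16 reads in all it was the member that did not pass the filter, which asked for a group mean of 1 deposited CPM or more in any group. Its day 12 rate in Def6-/- cells was 0.189 times that in WT cells, from 2 reads against 13 (counting interval 0.0207 to 0.835). Mx2 had 1 and 0 reads in WT and 1 and 1 in Def6-/- cells at day 0, and 6 and 13 in WT and 7 and 8 in Def6-/- cells at day 12. The genotypes overlapped for Mx2, and its ratio at day 12 was 0.970 with an interval from 0.459 to 2.02. Because Mx1 and Mx2 are paralogs, the split of reads between them is uncertain where their sequences are alike. The dynamins Dnm1 and Dnm2 were at 111 and 129 normalized CPM in WT and at 114 and 125 in Def6-/- cells at day 12, and of the 4 relatives tested (with Cmpk1 and Xiap) Dnm1 alone met the criterion, being higher at day 12 in both genotypes. The chaperones Rtp1, Rtp2 and Rtp3, relatives of Rtp4, had 0 reads in every library.

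Samhd1, a dNTP hydrolase that starves viral reverse transcription, was the tested member with the smallest differences between days. It had 238 and 353 reads in WT and 226 and 359 in Def6-/- cells at day 0, and 492 and 302 in WT and 297 and 322 in Def6-/- cells at day 12. The log2 differences between days were 0.30 (0.23) in WT and 0.34 (0.23) in Def6-/- cells, and those between genotypes were -0.08 (0.23) at day 0 and -0.05 (0.23) at day 12. The counting interval of its ratio between genotypes at day 12 ran from 0.861 to 1.07. Samhd1 supplied between 66.9% and 81.3% of the summed level of the 10 members at day 0 and between 20.7% and 48.5% at day 12, when Bst2 supplied between 31.8% and 51.2%.

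Per kilobase of exon, the scale on which genes can be compared with each other, Bst2 led the members in each of the 4 groups. In WT cells at day 12 it was at 280 ± 92.9 normalized CPM per kilobase, followed by Rtp4 at 25.7 ± 10.9, Samhd1 at 14.6 ± 1.14, Xaf1 at 4.84 ± 3.38, Ifi44 at 3.57 ± 1.14, Cmpk2 at 3.39 ± 0.38, Rsad2 at 1.77 ± 0.87, Ddx60 at 1.28 ± 0.37, Mx2 at 0.99 ± 0.73 and Mx1 at 0.58 ± 0.04. The libraries of Xaf1 and Ifi44, of Ifi44 and Cmpk2, of Rsad2 and Ddx60, of Ddx60 and Mx2, and of Mx2 and Mx1 overlapped, so that these neighbors did not differ beyond their spread. In Def6-/- cells at day 12 Samhd1, at 14.2 ± 1.2, stood above Rtp4, at 9.68 ± 3.21, with no overlap between their libraries. At day 0 Bst2, Samhd1 and Rtp4 held the first 3 places in both genotypes, with 32.1 ± 2.19, 11.9 ± 2.39 and 1.66 ± 0.00492 in WT cells. Bst2 and Samhd1 overlapped in Def6-/- cells at day 0. The lengths are unions of all annotated exons, which lowers the level per kilobase of genes with long alternative ends.

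**Figure D2:**
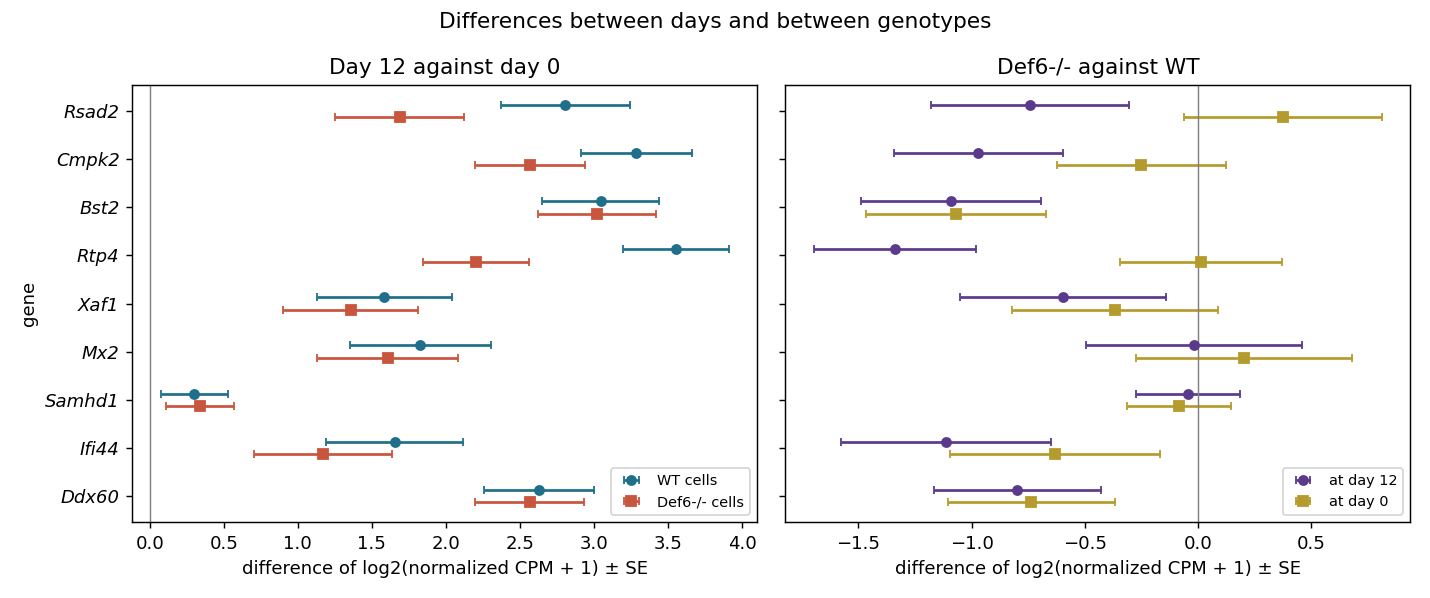
Differences of log2(normalized CPM + 1) with standard errors from the fit of 4 group means (horizontal axes) for the 9 members that passed the filter (vertical axis), between days for each genotype on the left and between genotypes for each day on the right. The 8 members other than Samhd1 lie between 1.17 and 3.56 on the left, and on the right Rtp4 moves from 0.01 at day 0 to -1.34 at day 12.

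The criterion of the study, an unadjusted p under 0.05 and a change over 1.2-fold, was applied with limma to all 12348 genes that passed the filter. Of the 9 tested members, 4 (Rsad2, Cmpk2, Mx2 and Ddx60) reached the filter only through their day 12 groups, where they are high, so a difference between days was built into their selection and counts and medians that include them are no support. Among the 5 members that also reached it at day 0, the 4 other than Samhd1 were higher at day 12 in WT and in Def6-/- cells, against 14.9% and 14.3% of the 11486 genes that did so. In WT cells 8 of the 9 tested members were higher at day 12, against 18.9% of all genes. In Def6-/- cells the same 8, without Samhd1, were higher, against 18.6%. After Benjamini-Hochberg adjustment over all genes 8 of 9 and 5 of 9 were higher, against 12.7% and 12%. The day 12 libraries were all above the day 0 libraries for 9 of 9 in WT cells, against 29.3% of all genes, and for 8 of 9 in Def6-/- cells, against 35.2%. The median log2 difference of the 9 members was 2.63 in WT and 1.69 in Def6-/- cells, and that of all genes was 0.00 and 0.01. Between genotypes at day 12, 4 of 9 were lower in Def6-/- cells (Bst2, Rtp4, Cmpk2 and Ifi44), against 0.591% of all genes, and both libraries of 1 genotype lay below both of the other for 6 of 9, against 15.9% (Mx1, outside the test, did so too). At day 0 Bst2 alone was lower, against 1.31% of all genes, and 3 of 9 (Bst2, Xaf1 and Ddx60) were lower without overlap, against 11.6%. The interaction picked Rtp4 alone, against 0.421%. No member had an adjusted p under 0.05 between genotypes by limma (0.0081% of all genes, Def6 alone, did on each day), by edgeR's quasi-likelihood test or by DESeq2, and at day 12 the latter 2 called 4 and 3 members at the unadjusted criterion. Since the members were chosen with these contrasts known, the counts describe them. The comparisons between days and between genotypes share libraries with each other.

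The day 12 counts leaned on single libraries. Without Def6-/- replicate 2 none of the 9 members met the criterion between genotypes, without Def6-/- replicate 1 Bst2 and Rtp4 did, without WT replicate 2 Rsad2 alone did, and without WT replicate 1 there were 5. The log2 difference of Bst2 lay between -1.44 and -0.74 and that of Rtp4 between -1.78 and -0.90 over all settings tried. Within the WT group at day 12 the members did not move together: replicate 2 was above replicate 1 by 1.61 times for Bst2 (1.45 to 1.79), by 1.85 times for Rtp4 (1.47 to 2.34) and by 2.95 times for Xaf1 (2.0 to 4.43), whereas replicate 1 was above replicate 2 by 2.06 times for Rsad2 (1.05 to 4.34). In the Def6-/- group replicate 1 was above replicate 2 by 1.63 times for Bst2 (1.37 to 1.94) and by 1.61 times for Rtp4 (1.06 to 2.49).

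Other cell types in the cultures were read from marker lists. Of 20 macrophage markers, 18 were higher at day 12 in WT cells and 17 in Def6-/- cells, against 18.9% and 18.6% of all genes. Of the 18 markers that reached the filter at day 0, 16 were higher in each genotype, against 14.9% and 14.3% of all genes that did so. The medians of the 20 markers were 3.22 and 3.13 on the log2 scale. Their summed level was between 238 and 490 normalized CPM in the 4 day 0 libraries. At day 12 it was 7158 in WT replicate 1, 3630 in WT replicate 2, 4476 in Def6-/- replicate 1 and 3961 in Def6-/- replicate 2, so the genotypes overlapped. In the same order of libraries, the 9 members without Samhd1 summed to 299, 483, 217 and 146 normalized CPM. WT replicate 2 thus had the highest sum of members and the lowest sum of macrophage markers. That sum of members was mostly Bst2, at 312 normalized CPM. Rtp4, Xaf1, Mx2, Ifi44 and Ddx60 were also higher in WT replicate 2 than in WT replicate 1. Rsad2 (10.3 against 5.03), Cmpk2 (15.2 against 12.984) and Mx1 were higher in WT replicate 1, which had the highest sum of macrophage markers. All 20 macrophage markers had a lower mean log2 level in Def6-/- cells at day 12 (median -0.29), and none met the criterion by limma. No macrophage marker was at 0 in any group. The part of macrophages in the differences of the members was not tested.

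Of 12 markers of macrophages and osteoclasts named in the study, 10 were tested, and 0 met the criterion between genotypes on either day by limma. Between days 3 of these (Ctsk, Itgb3 and Itgax) were higher at day 12 in WT cells, against 18.9% of all genes. The same 3 were higher in Def6-/- cells, against 18.6%. In each genotype 1 was lower (Acp5 in WT and Csf1r in Def6-/- cells), against 13.6% and 11.4% of all genes. The deposited values of 9 of the 12 (Acp5, Adgre1, Cd14, Csf1r, Ctsk, Fcgr3, Itgam, Itgb3 and Ptprc) did not correspond to whole reads in at least 1 library, which was true of no other gene in the tables, and the sources used here do not say how these values were made. Their results, for 8 of the 10 tested, are therefore uncertain. Of the other 2 tested, Itgax was higher at day 12 in both genotypes and Itgal met the criterion in no comparison. None of the 20 macrophage markers above is among the 9. The lymphocyte markers had 1 read in all, on Cd2, with the other 7 at 0 in all 8 libraries. The plasmacytoid dendritic cell marker Siglech was at 0 in every library. Of the 3 other markers of that list that were tested, Irf8 was higher at day 12 in both genotypes and Cox6a2 lower, and between genotypes Cox6a2 was higher in Def6-/- cells at day 12 and Irf8 at day 0. Endothelial markers summed to between 5.65 and 13 normalized CPM, and the 1 that was tested met the criterion nowhere. Adipocyte markers were higher at day 12 for 5 of 6 in WT and 6 of 6 in Def6-/- cells, against 18.9% and 18.6% of all genes. Adipoq and Cfd had 0 reads at day 0 in both genotypes, so they reached the filter only at day 12. Between genotypes at day 12, 4 of 6 (Adipoq, Plin1, Cfd and Fabp4) were higher in Def6-/- than in WT cells, against 0.81% of all genes. Of the 10 osteoblast markers, 2 (Bglap and Bglap2) were higher in Def6-/- cells at day 12, against the same 0.81%. The stress genes Fos, Jun, Atf3, Hspa1a and Ddit3 summed to between 207 and 359 normalized CPM at day 0 and between 140 and 172 at day 12, and none of the 5 met the criterion between genotypes.

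**Figure D3:**
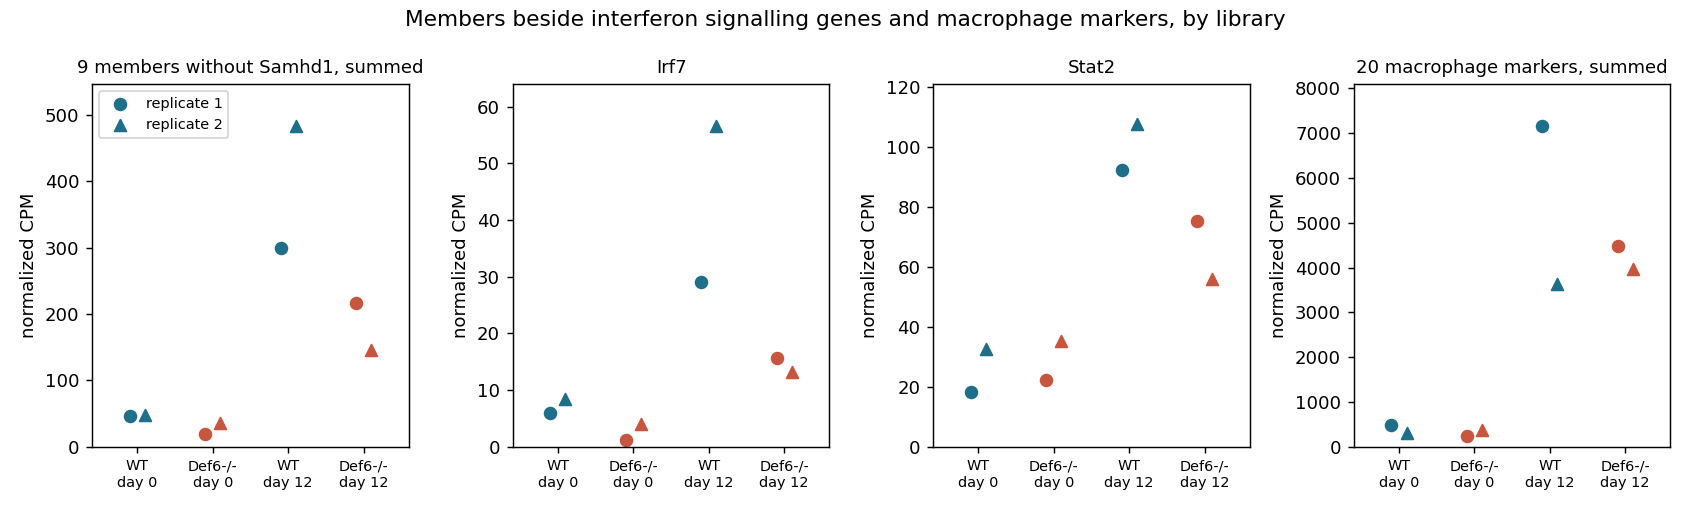
Summed normalized CPM of the 9 members without Samhd1, of Irf7, of Stat2 and of 20 macrophage markers (vertical axes, linear, from 0) in each library by genotype and day, circles for replicate 1 and triangles for replicate 2. At day 12 both WT libraries are above both Def6-/- libraries for the summed members (299 and 483 against 217 and 146, mostly Bst2), Irf7 and Stat2. For the macrophage markers WT replicate 2, at 3630, lies below both Def6-/- libraries.

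Upstream of the effectors, the ligand gene Ifnb1 had 2 reads in Def6-/- replicate 1 at day 12 and 0 in the other 7 libraries, so its level could not be compared at this depth. The receptor genes were well covered and did not meet the criterion in any comparison: Ifnar1 was at 104 and 106 normalized CPM in WT and Def6-/- cells at day 12 and Ifnar2 at 55.0 and 56.5. Stat2, a subunit of ISGF3, was at 100 normalized CPM in WT and 65.5 in Def6-/- cells at day 12, and both WT libraries were above both Def6-/- libraries (log2 difference -0.61, standard error 0.33). Irf9, the DNA-binding subunit of the same factor, was at 69.0 and 43.7 (-0.65, 0.28) and Irf7, the factor that amplifies interferon genes, at 42.8 and 14.4 (-1.43, 0.47), and these met the unadjusted criterion. At day 0 Irf7 met it too, at 7.20 normalized CPM in WT and 2.61 in Def6-/- cells, whereas the genotypes overlapped for Stat2 and Irf9. Of 21 signalling genes tested, 11 were higher at day 12 in WT cells and 10 in Def6-/- cells, against 18.9% and 18.6% of all genes. Of the 20 signalling genes that reached the filter at day 0, 10 and 9 were higher, against 14.9% and 14.3%. At day 12, 3 of the 21 (Irf7, Irf9 and Dhx58, a regulator of RIG-I) were lower in Def6-/- cells, against 0.591%. No signalling gene was lower at day 12 than at day 0 by the criterion in either genotype.

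The other interferon effectors, 42 genes tested from a list of further antiviral families such as Oas, Ifit and Parp, gave the setting for the members. Of these, 35 were higher at day 12 in WT cells and 29 in Def6-/- cells, against 18.9% and 18.6% of all genes. Of the 32 that reached the filter at day 0, 25 and 21 were higher, against 14.9% and 14.3%. The median log2 differences of the 42 were 1.85 and 1.30. At day 12, 11 of 42 were lower in Def6-/- than in WT cells, against 0.591% of all genes, and 0 were higher. The median was -0.51. For 31 the genotypes did not overlap, with WT cells on the upper side, against 15.9% of all genes. At day 0, 2 were lower (Isg15 and Apobec3) and 2 were higher (Uba7 among them), against 162 and 123 of all 12348 genes. These names were chosen for that reason alone, and the list's median was -0.11. The members' medians for the same comparisons were -0.80 at day 12 and -0.25 at day 0.

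The genes most like the members were sought by the root mean square difference from the members' median profile over the 8 libraries, each gene being centred on its own mean of log2(normalized CPM + 1). The nearest 8 outside the members were Psmb9 (0.15), Igtp (0.20), F830016B08Rik (0.25), Il18bp (0.25), Lst1 (0.26), Dhx58 (0.27), H2-K1 (0.27) and Themis2 (0.28), where the median of all genes tested was 1.23. Among the members the distance was 0.26 for Ddx60, between 0.40 and 0.59 for Cmpk2, Rtp4, Rsad2, Xaf1, Mx2, Bst2 and Ifi44, and 1.05 for Samhd1. Psmb9, an immunoproteasome subunit, was at 15.0 ± 3.71 normalized CPM in WT and 8.79 ± 0.35 in Def6-/- cells at day 12. Igtp, an immunity-related GTPase, was at 27.2 ± 8.38 and 16.1 ± 0.44. Il18bp, the secreted inhibitor of interleukin-18, was at 7.64 ± 0.15 and 3.98 ± 0.41, and H2-K1, a classical class I antigen-presenting molecule, at 455 ± 97.3 and 334 ± 58.0. Each of these 4 had WT libraries above the Def6-/- libraries at day 12. The likeness was chosen from these libraries and is a description.

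**Figure D4:**
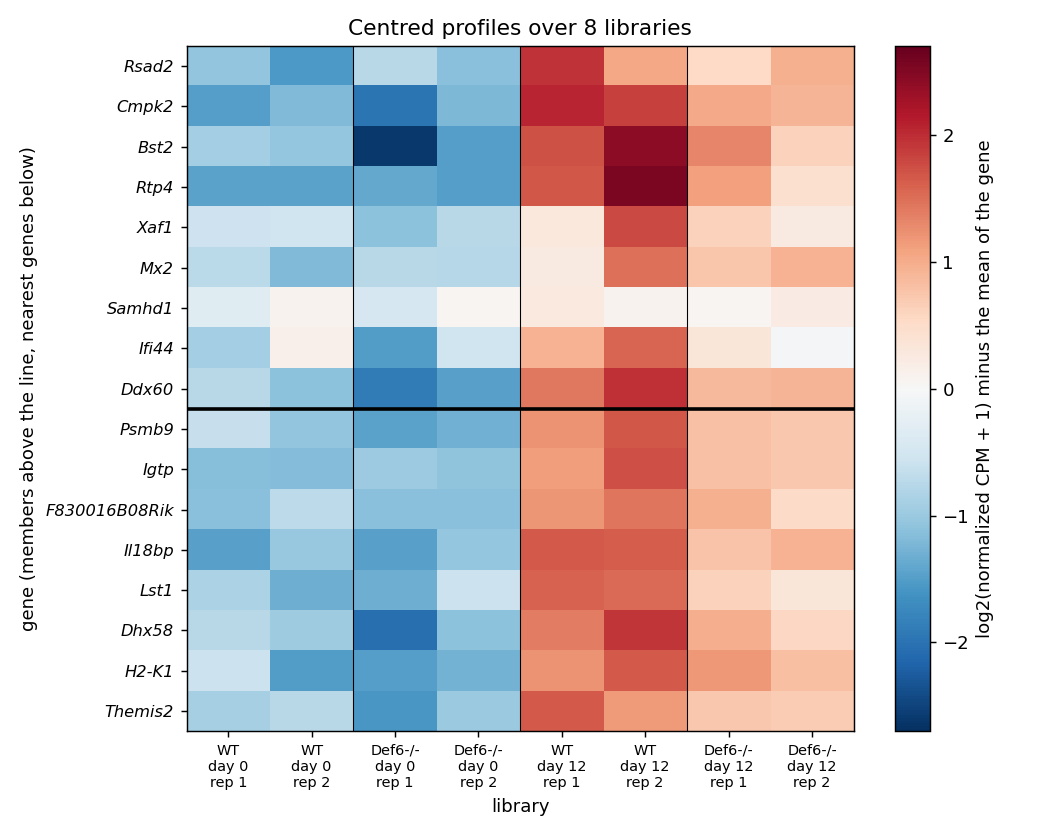
Heat map of log2(normalized CPM + 1) minus the mean of the gene (color, red above and blue below the mean) for the 9 members that passed the filter, above the line, and the 8 nearest genes, below it, in the 8 libraries. Samhd1 is close to its mean in every library, Rtp4 and Bst2 are highest in WT replicate 2 at day 12, and Rsad2 and Cmpk2 are highest in WT replicate 1.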

How the data were processed

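Poly-A RNA was sequenced in 8 libraries, 2 per genotype and day. The authors aligned the reads to mm10 with HISAT2 and counted them with HTSeq, and the deposited CPM values, made with edgeR, take as their base every read handled, on or off genes. fastp is also named in the submitters' processing notes. Versions, annotation and strand setting are not given in the sources used here. Whole reads were recovered for 99.959% of 114821 positive values (tolerance 0.05 reads). The exceptions are 47 values in 9 macrophage and osteoclast markers, none a member. Reads on genes were 28.8% to 35.3% of all reads.

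Reads were rescaled to reads on genes with TMM factors (edgeR 4.0.16), and log2(normalized CPM + 1) was fitted with limma 3.58.1 (eBayes with trend, 4 group means, all 8 libraries) for 12348 genes, kept where any group mean reached 1 deposited CPM. The pseudocount shrinks differences of scarce genes. Benjamini-Hochberg adjustment ran over all genes. edgeR's quasi-likelihood test and DESeq2 1.42.0 (R 4.3.3) were run on the recovered reads as alternatives, besides CPM as deposited, other size factors, pseudocounts, filters, single contrasts, the replicate block and each library left out. The fit was checked on simulated data. Intervals of read ratios are exact binomial at 95%.

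The members and all lists (interferon signalling, other effectors, relatives, osteoblast, macrophage, lymphocyte, plasmacytoid dendritic cell, endothelial, adipocyte and stress genes, and the study's markers) were chosen with earlier results of these data known. Every member is named, besides Def6, genes of the ligand, receptor and ISGF3 complex, relatives of members, the 8 genes of nearest profile and, chosen after their values were seen, list genes behind counts of 5 or fewer and markers at 0. The study describes the libraries as biological replicates, but whether each came from separate animals is not stated, so p-values measure only the spread between these libraries. Gene models are from GENCODE vM21 and promoters from RefSeq, both GRCm38. Some genes of the lists are not reported here by name.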

Additional observations from a re-analysis of the deposited data

Results flagged for a closer look

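The difference of Rtp4 between days differed between the genotypes: its genotype by day interaction was -1.35 on the log2(normalized CPM + 1) scale (standard error 0.51), and it met the unadjusted criterion with limma, although 0 members did with edgeR's quasi-likelihood test or DESeq2 and none passed adjustment over all genes. All 4 day 12 libraries were above the 4 day 0 libraries, and the call was lost without Def6-/- replicate 1 of day 0, without Def6-/- replicate 2 of day 12 and without WT replicate 2 of day 12. Its cause was not tested.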

How the results depend on the processing

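Leaving no single library out, the alternatives called 7 to 9 members higher at day 12 in WT cells, against 15.3% to 19.5% of all genes. In Def6-/- cells they called 7 or 8, against 15% to 23.4%. These counts include Rsad2, Cmpk2, Mx2 and Ddx60, which reached the filter only at day 12, and are no support. As each library was left out, the members' median log2 difference lay between 2.36 and 2.81 in WT and between 1.55 and 1.88 in Def6-/- cells. With all libraries this median was 2.63 in WT cells. It became 3.5 with edgeR, 3.56 with DESeq2, 3.44 with a pseudocount of 0.1, 1.67 with CPM as deposited and 2.23 without the filter. In Def6-/- cells it was 1.69 and became 2.79 with edgeR, 2.87 with DESeq2, 2.72 and 2.11 with pseudocounts of 0.1 and 0.5, and 1.04 with CPM as deposited. The number lower in Def6-/- cells at day 12 was 4, 3 with DESeq2 or a pseudocount of 0.5, and 2 with a pseudocount of 0.1. Ddx60 joined the 4 with CPM as deposited and with only the groups compared. Without the filter 5 of 10 members were lower. The number also leaned on single libraries, as described above. At day 0 it was 1, 2 with a pseudocount of 0.1 or 0.5 (Ddx60 joined Bst2), 0 with only the groups compared, and 0 to 2 as each library was left out (0 without Def6-/- replicate 1), with the median between -0.55 and -0.043. For the interaction it was 1 (Rtp4), 0 with edgeR or DESeq2, 2 without the filter (Rtp4 and Mx1) and 0 to 1 as each library was left out, with the median between -0.66 and -0.040. Of the values of single members under the alternatives, 547 moved by no more than their standard error and 105 by more, and no called value turned its sign. CPM as deposited put the median of all genes between genotypes at day 0 at 0.10, against -0.02. Same-numbered libraries deviated with correlations between 0.00232 and 0.327. The highest was between the genotypes at day 0, and the others were at most 0.152. A part shared by replicate number at day 0 is thus possible, and the labels do not say what same-numbered libraries share. The fit with the replicate block called 4 members lower at day 12 and 1 at day 0, as without it. Where a library was left out, the remaining one was assumed to vary like the other groups. Rsad2, Cmpk2, Mx1, Mx2 and Ddx60 had at most 5 reads per group at day 0, which limits what their differences can show.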
